A study of Mus musculus with 6 samples.

Results

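A set of 32 genes that mark astrocytes or carry out their main tasks was followed in the ventral midbrain of mice whose arrays were labelled Bach1 KO or wild type (WT). The genes were chosen as a list from knowledge of the cell type, with earlier results of these data known. Each was represented by the probe set annotated to its symbol alone, taking the one with the highest mean over 6 arrays where there were several. All 32 had such a probe set, of 22180 genes in all. Ventral midbrain was dissected from male mice of 2 months, and its total RNA was hybridised to Affymetrix arrays, 3 labelled Bach1 KO and 3 labelled WT. BACH1 is a heme-binding repressor of antioxidant and iron genes. The labels name neither the knockout allele nor the strain, and do not say that arrays of a genotype came from separate animals, so the tests weigh differences against a spread that may be technical. Every level below is a log2 value from RMA, a method that corrects background, equalises arrays and summarises probes, and a difference is always KO-labelled minus WT.

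The Bach1 probe set was not lower on the KO-labelled arrays, at 7.59, 7.68 and 7.70, against 7.46, 7.59 and 7.57 on WT arrays (limma, adjusted p = 0.74), so directions follow the labels. Whether its probes lie in sequence that the allele removes is not stated, so the genotype labels were not checked by it. Hmox1, the inducible heme oxygenase that BACH1 represses, was at 8.50, 8.22 and 8.41 on KO-labelled arrays, against 6.51, 6.46 and 6.32 on WT arrays (log2 fold change 1.95; limma, adjusted p = 0.0181). It was the 1 gene called among 22180. Over all 41345 probe sets limma called 3 higher, that of Hmox1 among them, and 0 lower. The others called were not the probe set chosen for a single named gene. With any single array left out, the adjusted p of Hmox1 (limma) was between 0.134 and 0.233 at a log2 fold change of 1.88 to 2.03. Array medians lay between 5.58 and 5.69.

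Astrocytes clear glutamate and potassium from around synapses, pass metabolites and ions to each other through gap junctions, line blood vessels and the brain surface with endfeet rich in water channels, and supply lipoproteins to neurons. In the midbrain they surround dopamine neurons, and in injury or inflammation they raise filament proteins such as GFAP and vimentin, a state called reactive. They also supply neurons with precursors of glutathione, whose synthesis genes are controlled by NRF2, the activator that competes with BACH1. In bulk tissue, fewer astrocytes and less RNA per astrocyte cannot be told apart.

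None of the 32 astrocyte genes passed the test for a difference between the genotypes, and the intervals were narrow. All 32 had a mean level above 5.07, the 40th percentile over all probe sets. Limma called 0 higher, against 0.00451% of all genes, and 0 lower, against 0.0%. At an unadjusted p under 0.05 there were also 0 of 32, against 6.51% of all genes and 2.64% of the 9516 genes with mean levels in the members' range. The differences ran from -0.19 for Gjb6 to 0.14 for Htra1, and the smallest adjusted p was 0.633. Of the members 12 had a higher mean and 20 had a lower one, with a median difference of -0.016, beside -0.0098 over all genes and -0.036 over genes of the same range of levels. The members' median was 0.0085 after renewed quantile normalization and -0.063 with arrays centred on their medians, and it ran from -0.032 without KO-labelled replicate 1 to 0.0017 without KO-labelled replicate 2. Among genes in that range of levels 33.1% had a higher mean. The members' split moved with the scaling of the arrays. It was 7 higher and 25 lower with arrays centred on their medians, and 18 higher and 14 lower after renewed quantile normalization.

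All 32 members had a 95% interval inside a 1.5-fold change in either direction, taken for each gene alone. This was so for 80.6% of all genes and 95.1% of genes in the same range of levels. The median member's interval reached 0.20 to each side of its difference, against 0.27 for the median gene and 0.22 for the median gene of like level. The median member varied by 0.21 from its lowest to its highest array, against 0.37 for the median gene and 0.25 for the median gene of like level. RMA values can understate true differences in RNA. With single arrays left out, 30 or 31 members stayed inside 1.5-fold, and the members outside it were Vim and Slc1a3. Slc1a3 was also outside with arrays centred on their medians (95% interval -0.59 to 0.26). Vim was also outside with replicate number as a block (95% interval -0.68 to 0.66). Both were outside without KO-labelled replicate 2 and WT replicate 1 together, an alternative chosen after seeing the data.

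**Figure D1:**
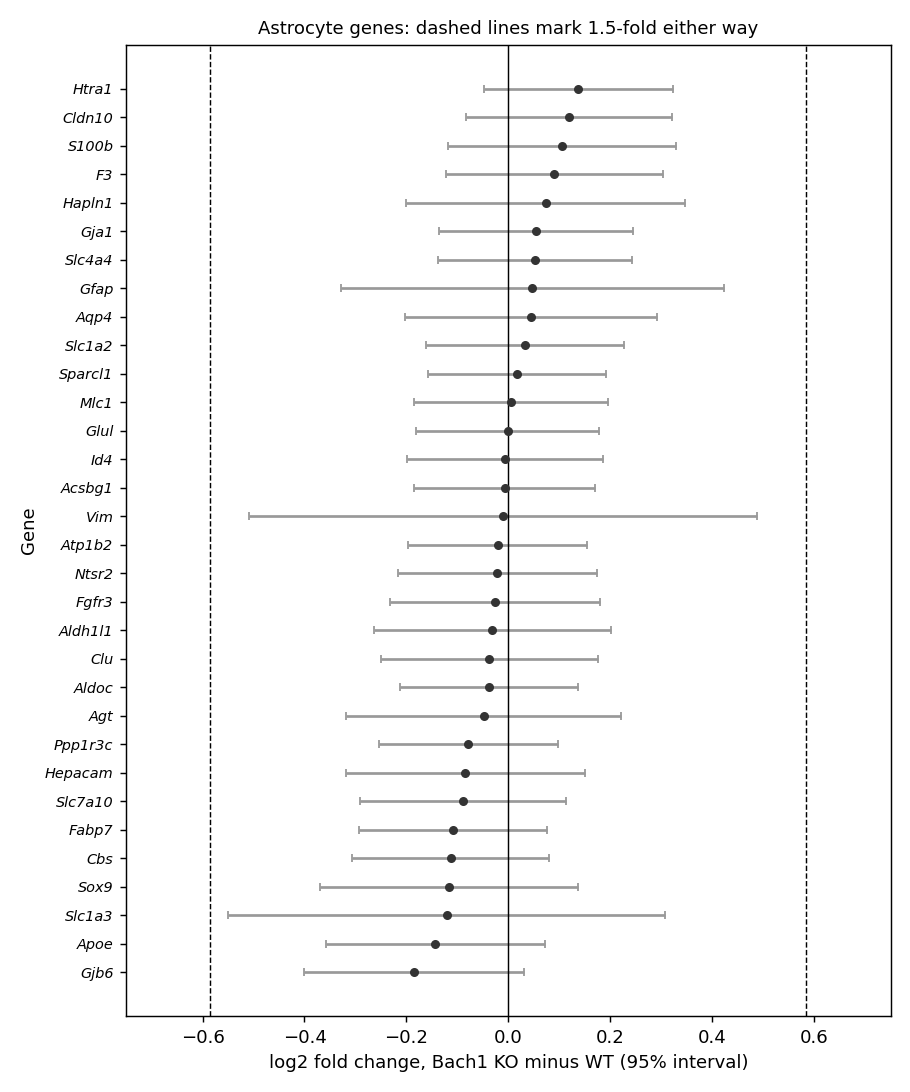
Log2 fold change (KO-labelled minus WT, x axis) of each of the 32 astrocyte genes (rows), with 95% intervals from limma on 3 arrays per group. All intervals cross 0 and lie inside the dashed lines at 1.5-fold, with Vim and Slc1a3 the widest and Htra1 and Gjb6 at the ends.

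Filament and calcium-binding genes varied between arrays of the same genotype and showed no call. Gfap (probe set 17270354), the filament protein used to stain astrocytes, was at 10.23, 9.76 and 9.91 on KO-labelled arrays, against 9.75, 10.10 and 9.90 on WT arrays. The KO-labelled group held the highest array and nearly the lowest, with a difference of 0.047 (95% interval -0.33 to 0.42; limma, adjusted p = 0.953). Vim (17367055), the vimentin filament shared with vessel, meningeal and ependymal cells, was at 10.44, 9.96 and 10.02 on KO-labelled arrays, against 9.80, 10.45 and 10.20 on WT arrays. Both filament genes were highest on KO-labelled replicate 1 and WT replicate 2, and lowest on WT replicate 1 followed by KO-labelled replicate 2. Vim differed by -0.011 (95% interval -0.51 to 0.49; limma, adjusted p = 0.992), and its second, dimmer probe set by -0.038 (95% interval -0.37 to 0.30). The sign of Gfap turned without KO-labelled replicate 1 (-0.085), without WT replicate 1 (-0.036) and with arrays centred on their medians (-0.0003). That of Vim turned after renewed quantile normalization (0.0081) and in 4 of the 6 fits that left out an array, without KO-labelled replicate 2 (0.080) or 3 (0.047) and without WT replicate 2 (0.14) or 3 (0.014).

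Meningeal fibroblast genes moved with the filament genes over part of these arrays. Their score, the mean over 10 genes of the log2 level minus the WT mean, was -0.049, -0.74 and -0.27 on KO-labelled arrays, against -0.75, 0.38 and 0.36 on WT arrays. The arrays lowest for Gfap and Vim were thus the ones lowest for meningeal genes, and the part of those cells in the filament values was not tested. All 10 meningeal genes had a mean above the 40th percentile of probe sets, so none was near 0.

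S100b (17234494), a calcium-binding protein of astrocytes and some oligodendrocytes, was at 9.94, 9.73 and 9.95 on KO-labelled arrays, against 9.73, 9.79 and 9.77 on WT arrays. Replicates 1 and 3 of the KO-labelled group lay above all WT arrays and replicate 2 below them, and the difference of 0.10 did not pass (95% interval -0.12 to 0.33; limma, adjusted p = 0.786). For F3 and Aqp4 as well, KO-labelled replicates 1 and 3 lay above all WT arrays and replicate 2 below them. KO-labelled replicate 2 also had the lowest scores of all 6 arrays for oligodendrocyte (-0.19), oligodendrocyte precursor (-0.205) and vessel genes (-0.31), and the highest for cortex and hippocampus genes (0.36). The part of these in the values of S100b, F3 and Aqp4 was not tested.

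**Figure D2:**
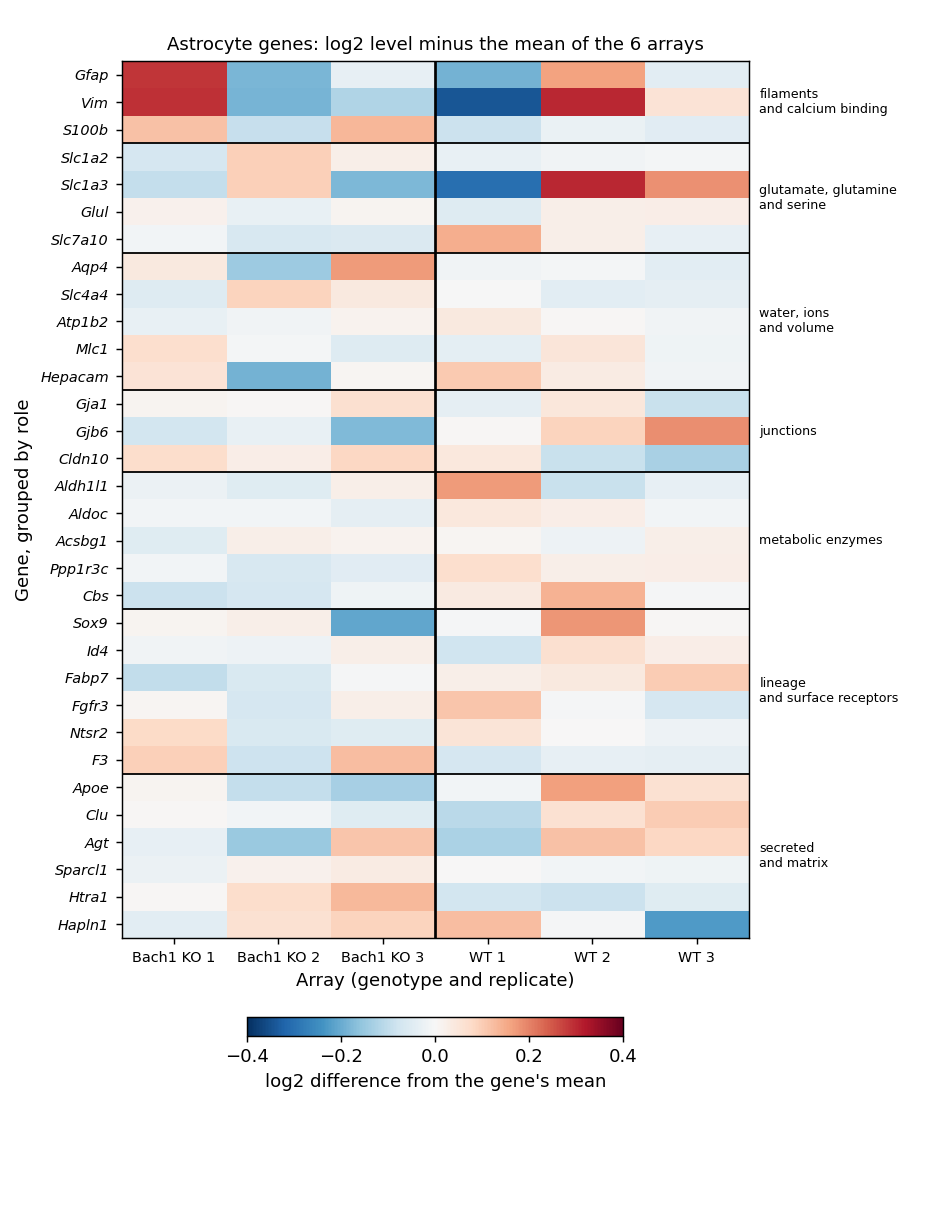
Log2 level of each astrocyte gene (rows, grouped by role) on each array (columns, KO-labelled left of the line, WT right) minus that gene's mean over the 6 arrays, on a colour scale from -0.4 to 0.4. The darkest cells are those of Gfap, Vim and Slc1a3, they differ between replicates of one genotype, and no block of rows is of one colour on all KO-labelled arrays.

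Among genes of glutamate and amino acid handling, the main transporter of the adult forebrain and the glutamine enzyme were nearly flat, while Slc1a3 varied between WT arrays. Slc1a2 (17373696), which encodes the glutamate transporter GLT-1, was at 10.33, 10.49 and 10.42 on KO-labelled arrays, against 10.37, 10.39 and 10.39 on WT arrays. The WT values lay close together and inside the KO-labelled range, with a difference of 0.033 (95% interval -0.16 to 0.23; limma, adjusted p = 0.932). Glul, the glutamine synthetase that turns glutamate into glutamine, spanned 0.079 over all 6 arrays and differed by -0.0013 (95% interval -0.18 to 0.18). Its second probe set differed by 0.076 (95% interval -0.13 to 0.29). Slc7a10, the transporter Asc-1 for small neutral amino acids such as serine, differed by -0.089 (95% interval -0.29 to 0.11; limma, adjusted p = 0.798).

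Slc1a3 (17315860), which encodes the glutamate transporter GLAST of astrocytes and radial glia, was at 10.24, 10.44 and 10.16 on KO-labelled arrays, against 10.04, 10.64 and 10.52 on WT arrays. WT replicates 2 and 3 were the highest of all arrays and WT replicate 1 the lowest, so the KO-labelled values fell between them. The difference was -0.12 (95% interval -0.55 to 0.31; limma, adjusted p = 0.882). It depended on single arrays, at -0.30 without WT replicate 1 and -0.0012 without WT replicate 2. With KO-labelled replicate 2 left out as well as WT replicate 1, the arrays of lowest meningeal score and an alternative chosen after seeing the data, it was -0.38 at an unadjusted p of 0.0242 and an adjusted p of 0.653 (limma). Slc1a3 is also expressed by ependymal and some perivascular cells.

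Water, ion and volume genes did not pass the test, with differences from -0.085 to 0.053 over the 5 genes. Aqp4 (17352862), the water channel of astrocyte endfeet, was at 10.65, 10.47 and 10.78 on KO-labelled arrays, against 10.60, 10.60 and 10.57 on WT arrays. The KO-labelled values spread to both sides of the tight WT values, with a difference of 0.044 (95% interval -0.20 to 0.29; limma, adjusted p = 0.929). Slc4a4, the sodium bicarbonate cotransporter NBCe1, differed by 0.053 (95% interval -0.14 to 0.24), and Atp1b2, a sodium pump subunit also known as the glial adhesion molecule AMOG, by -0.021 (95% interval -0.20 to 0.15). MLC1 and HEPACAM form a complex at astrocyte junctions that acts in volume control. Mlc1 differed by 0.0055 (95% interval -0.18 to 0.20). Hepacam differed by -0.085 (95% interval -0.32 to 0.15), with its lowest value of 10.61 on KO-labelled replicate 2 and all other arrays between 10.79 and 10.91.

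The connexins Gjb6 and Gja1 did not pass the test. Gjb6 (17307125), a connexin found mainly in astrocytes of grey matter, was at 7.32, 7.37 and 7.22 on KO-labelled arrays, against 7.40, 7.49 and 7.58 on WT arrays. All KO-labelled values lay below all WT values, and the lowest difference of the 32 did not pass (-0.19, 95% interval -0.40 to 0.031; limma, adjusted p = 0.633). Leaving out single arrays gave -0.23 to -0.14. Gja1 (17233347), the main gap junction protein of astrocytes, was at 11.11, 11.10 and 11.16 on KO-labelled arrays, against 11.06, 11.14 and 11.00 on WT arrays. These groups overlapped, with a difference of 0.054 (95% interval -0.14 to 0.24; limma, adjusted p = 0.881). Whether the difference of one connexin differed from that of the other was not tested. Cldn10, a claudin of tight junctions used as an astrocyte marker, was at 7.72, 7.67 and 7.73 on KO-labelled arrays, against 7.69, 7.56 and 7.52 on WT arrays (difference 0.12, 95% interval -0.083 to 0.32; limma, adjusted p = 0.732). KO-labelled replicate 2 was the one KO-labelled array below the highest WT value.

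The 5 metabolic enzymes and regulators all had a slightly lower mean on KO-labelled arrays, without a call, though Aldh1l1 and Acsbg1 had a higher one after renewed quantile normalization. Of genes in the members' range of levels only 33.1% had a higher mean, and of all genes 46.9%, so the shared direction is not a result about these 5. Cbs (17343227), cystathionine beta-synthase, which starts the route from homocysteine to cysteine, was at 8.24, 8.26 and 8.31 on KO-labelled arrays, against 8.36, 8.46 and 8.32 on WT arrays. The groups did not overlap, though WT replicate 3 and KO-labelled replicate 3 nearly met, and the difference was -0.11 (95% interval -0.31 to 0.081; limma, adjusted p = 0.734). Ppp1r3c (17364208), a targeting subunit that directs protein phosphatase 1 to glycogen, was at 9.34, 9.29 and 9.31 on KO-labelled arrays, against 9.42, 9.37 and 9.38 on WT arrays. It too did not overlap, with a difference of -0.078 (95% interval -0.25 to 0.097; limma, adjusted p = 0.795). Aldoc, the brain form of the glycolytic aldolase, differed by -0.038 (95% interval -0.21 to 0.14), and Acsbg1, an acyl-CoA synthetase, by -0.0074 (95% interval -0.19 to 0.17). Aldh1l1, the folate enzyme used to mark all astrocytes, differed by -0.032 (95% interval -0.26 to 0.20). Its highest value, 8.44, was on WT replicate 1, and without that array the difference was 0.045.

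Among lineage genes, Fabp7 (17233384), the brain lipid-binding protein of radial glia and astrocytes, was at 11.67, 11.71 and 11.76 on KO-labelled arrays, against 11.79, 11.81 and 11.87 on WT arrays. Its groups did not overlap, with a difference of -0.11 (95% interval -0.29 to 0.076; limma, adjusted p = 0.732). Sox9 (17257946), the transcription factor that starts gliogenesis, was at 9.58, 9.59 and 9.36 on KO-labelled arrays, against 9.56, 9.75 and 9.57 on WT arrays. Replicate 3 was the one KO-labelled array below the WT range, and the difference of -0.12 was -0.040 without it and -0.057 without WT replicate 2 (95% interval with all arrays -0.37 to 0.14; limma, adjusted p = 0.791). Id4, an inhibitor of basic helix-loop-helix factors, differed by -0.0065 (95% interval -0.20 to 0.19).

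Of the surface receptors, F3 (17402181), tissue factor, which starts coagulation, was at 10.45, 10.27 and 10.48 on KO-labelled arrays, against 10.28, 10.32 and 10.32 on WT arrays (difference 0.091, 95% interval -0.12 to 0.30; limma, adjusted p = 0.805). As for S100b and Aqp4, KO-labelled replicates 1 and 3 were above the WT arrays and replicate 2 below. The fibroblast growth factor receptor Fgfr3 differed by -0.026 (95% interval -0.23 to 0.18) and the neurotensin receptor Ntsr2 by -0.022 (95% interval -0.22 to 0.17).

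Secreted and matrix genes held the member with the highest difference. Htra1 (17483912), a secreted serine protease, was at 9.15, 9.21 and 9.27 on KO-labelled arrays, against 9.07, 9.06 and 9.10 on WT arrays. It was the 1 member whose KO-labelled values all lay above the WT values, with a difference of 0.14 (95% interval -0.048 to 0.32; limma, adjusted p = 0.674) that stayed between 0.11 and 0.17 when single arrays were left out. Apoe (17487381), the main lipoprotein component made by astrocytes and by microglia, was at 8.84, 8.73 and 8.69 on KO-labelled arrays, against 8.81, 8.99 and 8.89 on WT arrays. Replicate 1 of the KO-labelled group overlapped the lowest WT array, and the difference was -0.14 (95% interval -0.36 to 0.072; limma, adjusted p = 0.705). Clu, the extracellular chaperone clusterin, differed by -0.037 (95% interval -0.25 to 0.18). Agt, the angiotensin precursor that astrocytes make in the brain, differed by -0.049 (95% interval -0.32 to 0.22). Sparcl1, the synapse-forming protein hevin, spanned 0.055 over all arrays, the narrowest range of the 32, and differed by 0.017 (95% interval -0.16 to 0.19). Hapln1, a link protein of hyaluronan matrix that neurons and glial precursors also make, differed by 0.073 (95% interval -0.20 to 0.35) and by -0.022 without WT replicate 3.

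In all, 5 of the 32 members did not overlap between the groups, against 14.3% of all genes. Of these 4 were lower (Gjb6, Cbs, Ppp1r3c and Fabp7), against 7.94% of all genes and 11.2% of genes in the members' range of levels, and Htra1 was higher, against 6.36% and 2.57%. The total is near the background and is not a result about the set.

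**Figure D3:**
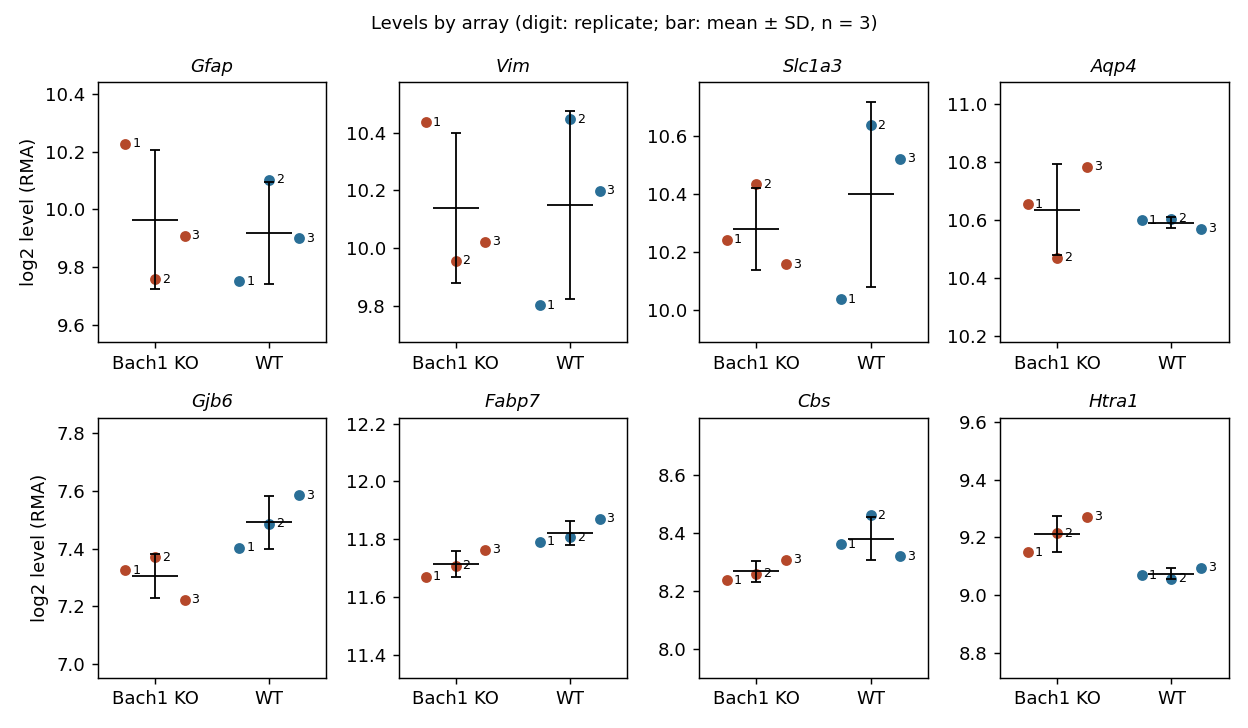
Log2 level (y axis) of 8 astrocyte genes on the 3 arrays labelled Bach1 KO (left) and the 3 WT arrays (right), with mean and SD. Gfap, Vim, Slc1a3 and Aqp4 overlap between the groups, while Gjb6, Fabp7 and Cbs are lower and Htra1 is higher on all KO-labelled arrays, by less than 0.2 on average.

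The promoters of the members were read for the letters of elements that BACH1 and related factors bind, since the knockout concerns that factor. RefSeq (GRCm38.p6) gave promoters for 27 of the 32 genes, 33 sequences of 300 bases, each with 250 bases before the gene's start. The antioxidant response core TGACNNNGC was found, on either strand, in 2 of the 33, against 12.4% of 32851 promoters of the same length. The shorter AP-1-like element TGAGTCA was found in 2 of the 33, against 5.2%. TGACTCA, the opposite-strand reading of the shorter element, can lie inside a match to the longer one. The matching stretches are shown because Htra1 and Gja1 are among the genes whose levels are given above, with the motif in capitals and each read 5′ to 3′ on the gene's own strand.
Htra1, chr7:130936100-130936178, plus strand, motif on the opposite strand: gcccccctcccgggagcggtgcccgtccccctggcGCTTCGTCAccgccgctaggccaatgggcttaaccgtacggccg
Fgfr3, chr5:33721636-33721714, plus strand, motif on the same strand: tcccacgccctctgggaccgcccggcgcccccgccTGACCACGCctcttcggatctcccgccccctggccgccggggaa
F3, chr3:121723367-121723443, plus strand, motif on the same strand: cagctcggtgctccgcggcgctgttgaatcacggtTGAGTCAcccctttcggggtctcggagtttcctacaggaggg
Gja1, chr10:56377246-56377299, plus strand, motif on the same strand: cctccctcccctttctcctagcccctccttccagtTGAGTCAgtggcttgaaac
Of these genes Htra1 differed by 0.14, F3 by 0.091, Gja1 by 0.054 and Fgfr3 by -0.026, and none was called. A match is a description of letters and not of binding.

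Further genes of astrocyte function, 122 in 9 lists, were also without a call. Of 111 with a probe set of their own, limma called 0 in either direction. At an unadjusted limma p under 0.05 there were 3, against 6.51% of all genes and 2.64% of genes in the members' range of levels. The median difference of the 111 was -0.051, beside -0.0098 over all genes and -0.036 over genes in the members' range of levels. Groups did not overlap for 1 of the 111 with KO-labelled values higher (Mertk) and for 9 with them lower. Of all genes 6.36% and 7.94% did so, and of genes in the members' range of levels 2.57% and 11.2%. Slc27a1, Srebf2, Rfx4, Lgi4, Bmpr1b and Cd14, named below, are among the lower ones. The mean was higher for 33 of the 111 and lower for 78. Of all genes 46.9% had a higher mean, and of genes in that range 33.1%. These shares also stand beside the counts of each list below. In the list of uptake and potassium genes 1 of 9 had a higher mean, and Slc38a5 and Slc38a3, transporters of glutamine, differed by -0.20 and -0.097. Among metabolic genes 6 of 16 had a higher mean, with differences from -0.25 to 0.18 over the list. Phgdh, which starts serine synthesis, differed by -0.25 and the fatty acid transporter gene Slc27a1 by -0.13. Among lipoprotein and cholesterol genes 4 of 9 had a higher mean, with differences from -0.21 to 0.15 over the list. Mfge8 differed by -0.21 and the sterol regulator Srebf2 by -0.098.

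The transcription and Notch list, with 6 of 15 means higher, held 2 of the 3 genes under an unadjusted p of 0.05. Rfx4, a factor of glial and neural progenitor cells, was at 6.91, 6.82 and 6.97 on KO-labelled arrays, against 7.10, 7.26 and 7.09 on WT arrays (difference -0.24; limma, adjusted p = 0.579). Its groups did not overlap. Id1, a target of bone morphogenetic protein signals that vessels also express, was at 7.19, 6.92 and 7.25 on KO-labelled arrays, against 6.62, 6.79 and 6.93 on WT arrays (difference 0.34; limma, adjusted p = 0.58). Here KO-labelled replicate 2 lay just below WT replicate 3. Of secreted synapse factors, 9 of 13 had a lower mean, with Lgi4 at -0.18 and the phagocytic receptor gene Mertk at 0.21. Among surface and junction genes, 11 of 14 were lower, with the bone morphogenetic protein receptor gene Bmpr1b at -0.17. Gjb2, a connexin that meningeal cells also make, was at 8.49, 7.46 and 8.35 on KO-labelled arrays, against 8.24, 8.94 and 8.98 on WT arrays (difference -0.62; limma, adjusted p = 0.664). Its low arrays were again KO-labelled replicate 2 and WT replicate 1.

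Genes of reactive astrocytes were not raised on KO-labelled arrays by the test. In the 3 reactive lists together, 40 genes were listed and 0 of 35 measured genes were called. The inflammatory list had 8 of 13 genes measured, without C3, H2-D1, Ggta1, Gbp2 and Ugt1a1, which had no probe set of their own. Over the 35 measured genes the mean was higher for 9 and lower for 26, and the median difference was -0.040. Over all genes 46.9% had a higher mean, with a median difference of -0.0098. Among genes in the members' range of levels 33.1% did, with a median difference of -0.036. Several reactive genes, such as Steap4, Iigp1, Cd14 and Clcf1, lay below that range, so its shares are not a matched background for this list. Of the genes common to reactive states, Cp, ceruloplasmin, differed by -0.33 (95% interval -0.96 to 0.29) and Steap4, a metalloreductase, by -0.28 (95% interval -0.76 to 0.20). Of genes linked to inflammation, Fbln5 differed by -0.22 and Iigp1 by -0.12. Of genes linked to ischaemia, Cd14, a receptor that microglia express, was at 5.24, 5.19 and 5.35 on KO-labelled arrays, against 5.64, 5.41 and 5.70 on WT arrays (difference -0.33; limma, unadjusted p = 0.0218, adjusted p = 0.555), and its groups did not overlap. The cytokine gene Clcf1 differed by 0.31. The reactive genes were less precisely measured than the astrocyte members, with 24 of 35 intervals inside 1.5-fold and 30 of 35 means above the 40th percentile of probe sets.

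Scores over whole lists ranged less for the 32 astrocyte members than for the further astrocyte genes, a longer list. They also ranged less than for the 8 lists of other cell types and regions, which are shorter. The score over the 32 members was 0.0061, -0.044 and -0.0095 on KO-labelled arrays, against -0.026, 0.036 and -0.0097 on WT arrays. These overlapped, and KO-labelled replicate 2 was the lowest. Further astrocyte genes were at -0.043, -0.098 and -0.042 on KO-labelled arrays, against -0.077, 0.067 and 0.0093 on WT arrays. Microglia scores were 0.050, -0.087 and 0.028 on KO-labelled arrays, against -0.0033, 0.0039 and -0.0006 on WT arrays. Neuron scores were 0.046, -0.020 and 0.097 on KO-labelled arrays, against 0.077, -0.025 and -0.052 on WT arrays. Ependyma and choroid plexus scores were -0.12, 0.13 and -0.060 on KO-labelled arrays, against -0.18, 0.28 and -0.099 on WT arrays. Limma called 0 genes in each of the 8 lists of other cell types and regions, which held 9 or 10 measured genes each, all but 2 of them with means above the 40th percentile.

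**Figure D4:**
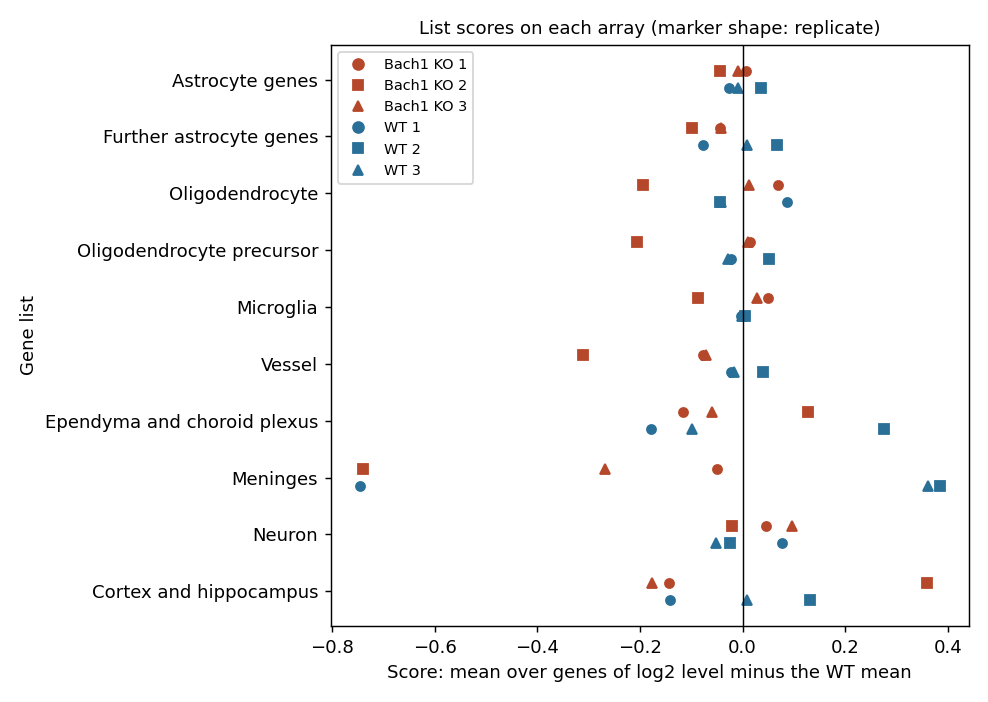
Score of each gene list (rows) on each array (KO-labelled above, WT below in each row), the mean over its genes of the log2 level minus the WT mean. Astrocyte scores lie between -0.044 and 0.036, while meningeal scores run from -0.75 to 0.38 and put KO-labelled replicate 2 and WT replicate 1 at the low end.

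Named by the same rule, other cell types held single genes with differences outside the range of the astrocyte members, none of them called. Siglech, a microglial lectin, was at 7.24, 7.04 and 7.23 on KO-labelled arrays, against 7.56, 7.47 and 7.50 on WT arrays (difference -0.34; limma, unadjusted p = 0.0082, adjusted p = 0.516). Its groups did not overlap, with all KO-labelled values lower. Those of the microglial receptor gene Cx3cr1, which differed by 0.16, did not overlap either, with all KO-labelled values higher. Of the genes named after these, Abcc9 and Lamp5 did not overlap, both lower. Over all genes 14.3% did not overlap. In the microglia list 6 of 9 genes had a higher mean. Over all genes 46.9% did, and 33.1% of genes in the astrocyte members' range of levels. The vessel genes Pdgfrb and Abcc9 differed by -0.30 and -0.24, in a list with 1 of 10 means higher. The oligodendrocyte genes Opalin and Cnp differed by -0.24 and -0.11, with 3 of 9 means higher, and the precursor list's Bmp4 and Gpr17 by -0.62 and 0.088, with 6 of 10 higher. The ciliary genes Tmem212 and Rsph1 differed by -0.465 and -0.28. Tmem212 was dim, with means of 4.26 on KO-labelled and 4.72 on WT arrays, below the 40th percentile of probe sets at 5.07. In the ependyma and choroid plexus list 4 of the 9 genes had a higher mean, and differences ran from -0.465 to 0.91. The meningeal transporter genes Slc6a13 and Slc22a6 differed by -0.73 and -0.80, with 2 of 10 means higher. The neuronal genes Slc6a3 and Nefl differed by 0.15 and 0.11, with 8 of 10 higher, and the forebrain genes Lamp5 and Emx1 by -0.23 and 0.15, with 6 of 9 higher.

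Single arrays moved many of these values. Leaving out 1 array moved 11 of the 16 named genes of other cell types, and 11 of the 18 named further astrocyte genes, by over 1.5 times. Without single arrays Bmp4 ran from -0.84 to -0.39, Opalin from -0.32 to -0.097 and Cnp from -0.16 to -0.0091, each least negative without KO-labelled replicate 2. Gpr17 ran from 0.0 to 0.15 and Slc6a3 from 0.050 to 0.23, each lowest without WT replicate 3. Slc6a13 ran from -1.24 to -0.47 and Slc22a6 from -1.37 to -0.48, each most negative without WT replicate 1.

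The astrocyte genes did not vary as one block over the arrays. After each group's mean was removed, the members above it numbered 18, 11 and 20 on KO-labelled arrays and 14, 18 and 13 on WT arrays, of 32. The mean of all 496 pairwise Pearson correlations between members over the 6 arrays, also after the group means were removed, was 0.0205, beside 0.0052 over all genes. Of the pairs 261 were positive and 12 were over 0.9. The like counts over all pairs of genes were not taken, so these are not a result about the members. All of these are descriptions over 6 arrays that share 1 normalization. The mean correlation was 0.273 with arrays centred on their medians, beside 0.0582 over all genes. After renewed quantile normalization it was -0.0087, beside 0.0041. The pairs named here were picked from the ends of the 496. Gfap and Vim were high and low on the same arrays (r = 0.94), as were S100b and F3 (r = 0.99). Slc1a3 and Aldh1l1 ran in opposite order (r = -0.98). The oppositely ordered pair shared WT replicate 1 as an extreme, lowest for Slc1a3 and highest for Aldh1l1.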

How the data were processed

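Per the submitters' processing notes, RMA made the log2 expression values that the authors deposited for 41345 probe sets, 1 column per array. Which software ran RMA is not given in the sources used here. That the values are log2 was read from the range of values (0.745 to 14.1). The platform annotation, updated through Entrez identifiers to RefSeq (23328 matched), named 1 gene for 23521 probe sets. The 1814 with several genes and the 16010 without one were named for none. Limma 3.58.1 in R 4.3.3 (lmFit and eBayes, two-sided, Benjamini-Hochberg over all probe sets, called at an adjusted p under 0.05) compared 3 KO-labelled with 3 WT arrays without covariates, and was tested on simulated data. The number of arrays limits precision, and the labels give no batch.

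The members and all lists were chosen with earlier results of these data known. All members are named, and from each other list the 2 genes of smallest unadjusted p. Alternatives changed the scaling, the probe set per gene, the filter on dim probe sets, the variance model, the replicate block and the arrays included. There were 0 other columns of sample values.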

Additional observations from a re-analysis of the deposited data

How the results depend on the processing

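Limma called 0 members and 0 further astrocyte genes under all 14 alternatives, and the smallest adjusted p of a member over them was 0.557. The number of arrays limits precision, and 16 members changed sign under some alternative. The cause was not tested. At an unadjusted p under 0.05 there were 2 members with a variance trend (Fabp7 and Htra1), 1 with arrays centred on the median (Gjb6) and 1 without both arrays of lowest meningeal score (Slc1a3), an alternative chosen after seeing the data. Of further astrocyte genes there were 7 with a variance trend, 5 with the mean of a gene's probe sets, 6 without dim probe sets, 11 without both those arrays, and 1 to 8 without single arrays (8 without WT replicate 1). With the replicate block there were 5, and the block called 0 members. The share of all genes under an unadjusted p of 0.05 was not taken under each alternative. These counts are therefore not results about the members or the further genes. Same-numbered KO-labelled and WT arrays had correlations of their deviations across genes of 0.077, -0.029 and 0.020, so the numbers were not taken to pair samples. The adjusted p of Hmox1 was 0.544 under the block, at the same log2 fold change of 1.95, and 0.645 without both those arrays, at 2.06. Centring gave 7 members with a higher mean, a median of -0.063, scores of -0.037 and -0.13 on KO-labelled replicates 1 and 2, and a mean correlation of 0.273. Renewed quantile normalization gave 18 with a higher mean, a score of -0.0076 on KO-labelled replicate 2 and a mean correlation of -0.0087. Signs reversed by centring gave -0.0003 for Gfap, -0.0026 for Aqp4, -0.014 for Slc1a2, -0.042 for Mlc1 and -0.030 for Sparcl1. Those reversed by quantile normalization gave 0.0081 for Vim, 0.0089 for Aldh1l1, 0.0094 for Fgfr3, 0.026 for Acsbg1, 0.0064 for Glul and 0.037 for Id4. The mean of its probe sets gave 0.037 for Glul. Without both arrays of lowest meningeal score the reversed values were 0.061 for Aldh1l1, -0.012 for Slc1a2, 0.051 for Fgfr3, -0.0074 for Mlc1, 0.023 for Ntsr2, 0.021 for Hepacam and 0.011 for Cnp. Without single arrays, differences ran from -0.085 to 0.15 for Gfap, -0.18 to 0.14 for Vim, -0.084 to 0.045 for Aldh1l1, -0.030 to 0.13 for Aqp4, -0.0065 to 0.076 for Slc1a2, -0.065 to 0.023 for Fgfr3, -0.027 to 0.033 for Mlc1, -0.065 to 0.0028 for Ntsr2, -0.021 to 0.015 for Acsbg1, -0.022 to 0.15 for Hapln1, -0.12 to 0.014 for Agt, -0.027 to 0.013 for Glul, -0.048 to 0.025 for Id4 and -0.10 to 0.0040 for Clu.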
